A study of Mus musculus with 9 samples.

Results

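The insulin receptor family and its first substrates were examined as 6 genes: the receptor tyrosine kinases Insrr, Insr and Igf1r, the receptor Igf2r, and the substrates Irs1 and Irs2. They were taken by gene symbol from 55536 annotated genes, and all 6 were among the 17258 genes with enough counts to be tested. The set was chosen by gene family around Insrr, which was selected on its CPM (read counts scaled to library size) in icKO against control. The members' differences between groups are therefore given here as a description. The test over all genes included the members, but its outcomes for them are not used as support. RNA came from lumbar dorsal root ganglia, which hold the cell bodies of the sensory neurons of the lower trunk and hind limb, of adult C57Bl6 mice. The icKO group (5 libraries) carried the inducible conditional knock-out of Prdm12, a zinc finger regulator known for its role in pain-sensing neurons, and the control group (4 libraries) is labelled wild type. The series describes the ganglia as collected 1 month after tamoxifen, which switches on the recombinase in such a design. The sources used here do not give the Cre driver, the deleted exon, or whether the controls carried an allele or received the drug. Effects of the Cre, the allele or the drug and of the loss of Prdm12 cannot be told apart. The sex of the mice is not labelled, and libraries high and low in Y-linked transcripts were found in both groups. The labels do not say that the libraries came from separate mice, so the spread between them may be partly technical.

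Insulin and the insulin-like growth factors bind dimeric receptors whose intracellular kinase domains phosphorylate one another and then the IRS docking proteins. These recruit phosphoinositide 3-kinase (PI3K), which activates AKT and mTOR, while a parallel branch runs through SHC and GRB2 to RAS and the MAP kinases. Insrr, the insulin receptor-related receptor, has the same architecture but is not known to bind insulin, and is known as a sensor of alkaline pH outside the cell. Igf2r belongs to the set by ligand and not by structure: it is the mannose 6-phosphate receptor, which has no kinase domain and carries IGF2 and lysosomal enzymes to lysosomes. In sensory neurons, insulin and IGF1 are known as trophic factors.

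The kinase domains of the receptors share an activation loop with 3 tyrosines that are phosphorylated on activation. The coding stretches of Insr and Igf1r, from the GENCODE M21 transcripts, are shown to let the insulin and IGF1 receptors be compared where they are switched on. Each stretch has 54 bases, read 5′ to 3′ on the coding strand, with the tyrosine codons in capitals.
Insr: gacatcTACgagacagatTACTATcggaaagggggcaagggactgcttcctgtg
Igf1r: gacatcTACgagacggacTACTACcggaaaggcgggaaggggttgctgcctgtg
In these stretches 46 of 54 bases (85.2%) were identical. Over the whole coding sequences, the longest identical run was 29 bases between Insrr and Insr, 23 between Insrr and Igf1r and 19 between Insr and Igf1r. Within the coding sequences, only reads no longer than these runs could match both genes of such a pair exactly, and the sources used here do not give the read length.

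The substrates were compared at the site type that docks PI3K, a tyrosine codon followed by any 2 codons and a methionine codon. Irs1 and Irs2 each held 9 such sites, while the coding sequence of Insrr held 0, that of Igf1r 1 and that of Insr 2. The first of these sites with a methionine also next to the tyrosine is shown for both substrates, as 30 bases with the tyrosine and last methionine codons in capitals.
Irs1: gatgatggcTATatgcccATGtctcctggg
Irs2: ctctatgggTACatgagcATGgatagaccc

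Before the groups were compared, the levels of the members were ordered within the control group as CPM per kb of merged annotated exons. Irs2 was highest at 8.05 ± 1.08 CPM per kb (SD, n = 4), followed by Igf2r at 5.54 ± 0.755, Igf1r at 4.52 ± 0.567, Insr at 3.23 ± 0.321, Insrr at 1.46 ± 0.136 and Irs1 at 0.524 ± 0.146. Of neighbours in that order, the ranges of Igf2r (4.41 to 6.02) and Igf1r (3.99 to 5.3) overlapped, and no other pair of neighbours did. Insrr was therefore the lowest of the 3 kinase receptors, with 15.9% ± 1.71 (SD, n = 4) of their summed level per kb in control, where Insr made up 35.1% and Igf1r 49.0%. These shares depend on the merged exon lengths, 5714 bases for Insrr, 13746 for Insr and 16791 for Igf1r. Which of these exons the transcripts used was not examined. Without the scaling by length, the control means were 8.31 CPM for Insrr, 44.5 for Insr and 75.9 for Igf1r. In icKO the order was the same, but Irs2 (5.93 to 8.09 CPM per kb) now overlapped Igf2r (6.1 to 7.03), and Insrr (0.494 to 0.816) overlapped Irs1 (0.472 to 0.559). The share of Insrr in the 3 receptors was 7.12% ± 1.35 (SD, n = 5), with 6.01% to 9.1% in icKO and 14.3% to 17.8% in control.

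**Figure D1:**
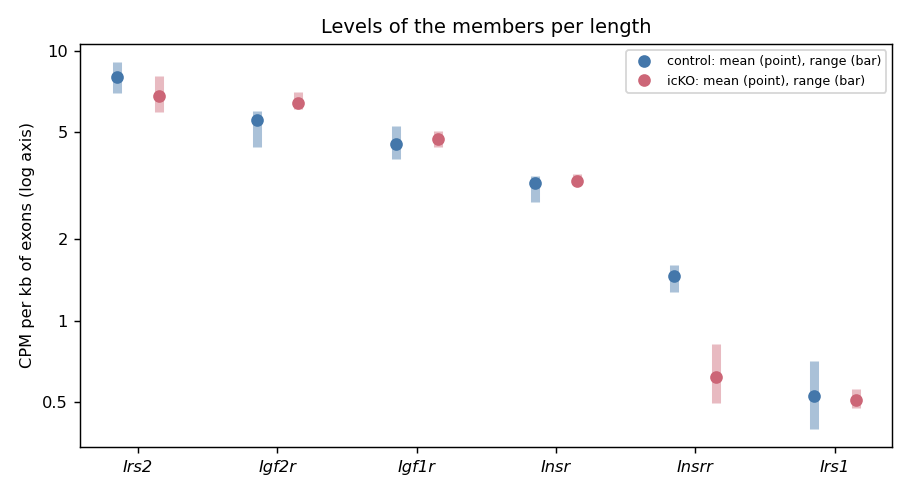
Level of each member as CPM per kb of merged exons (log axis), with the mean as a point and the range over libraries as a bar, for control (n = 4, blue) and icKO (n = 5, red). The order of the means is the same in both groups. In icKO the ranges of Irs2 and Igf2r overlap, as do those of Insrr and Irs1, so their order is not resolved there. Between the groups, the Insrr ranges of 1.28 to 1.61 in control and 0.494 to 0.816 in icKO are the most separated.

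Insrr was the member with the largest difference between the groups. Control libraries 1 to 4 held 7.29, 8.36, 9.17 and 8.44 CPM, and icKO libraries 1 to 5 held 4.03, 2.82, 4.66, 3.08 and 3.08 CPM. Every icKO library lay below every control library. The means were 8.31 ± 0.777 CPM (SD, n = 4) in control and 3.53 ± 0.781 CPM (SD, n = 5) in icKO, so icKO held 42.5% of the control level. The log2 fold change was -1.23 (SE 0.15, 95% interval -1.55 to -0.90), the 33rd lowest of the 17258 tested genes. In ganglion tissue, fewer cells that express a gene and less of its RNA per cell cannot be told apart.

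These values rest on few reads, with 73 to 134 counts in each icKO library and 164 to 252 in each control library. Counting error alone gave a relative error of 8.64% to 11.7% per icKO library, against a coefficient of variation of 22.1% between them. In control it was 6.30% to 7.81%, against 9.35% between libraries. The exact Poisson 95% interval of the highest icKO library, replicate 3, was 3.91 to 5.52 CPM, and that of the lowest control library, replicate 1, was 6.31 to 8.37 CPM. These intervals cover counting error only.

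The 9 libraries also differed in Y-linked transcripts, with 98.0 to 164 CPM summed over 4 such genes in 4 libraries (icKO 1 and 2, control 1 and 3). Of the other 5, icKO 4 was at 3.57 CPM and the rest were at 0.104 to 0.669 CPM. The source of the Y-linked reads in icKO 4 was not tested. Described within these classes, the Insrr difference was -1.25 (SE 0.23) among the 4 high libraries and -1.21 (SE 0.20) among the 5 low ones. The split was made after the data were seen, it divides the same libraries by which Insrr was chosen, and it adds no independent support.

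**Figure D2:**
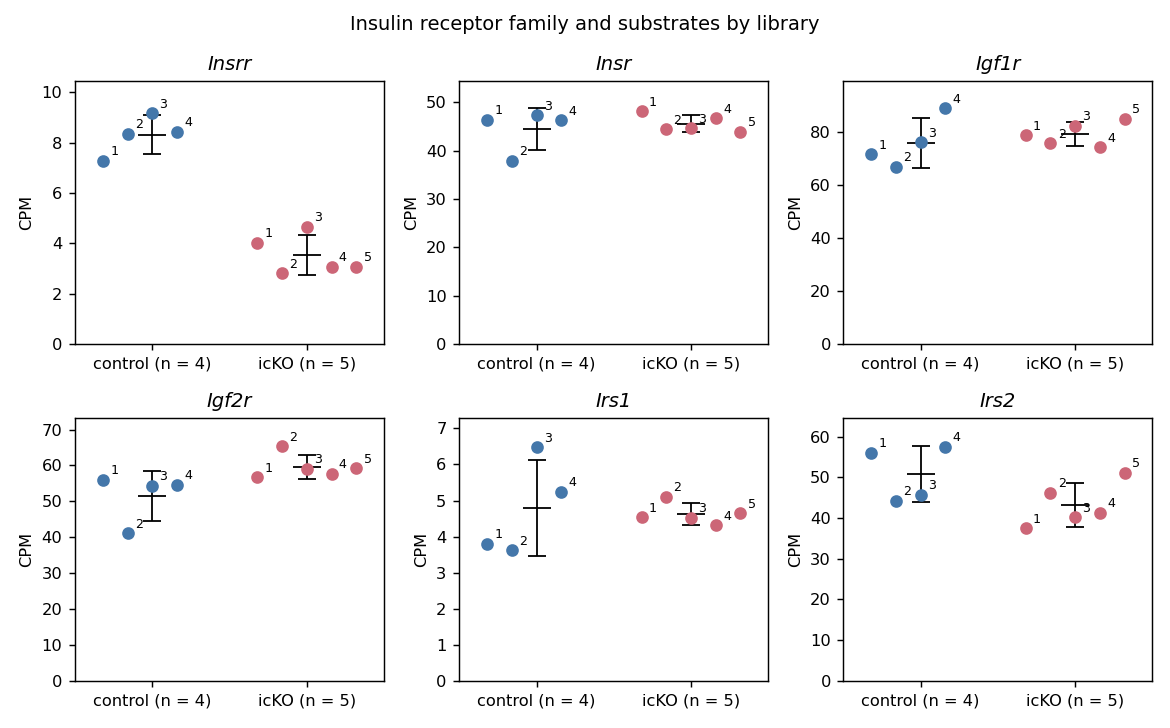
CPM of each member in every library (points, numbered by replicate), with the group mean and SD as black bars, for control (n = 4) and icKO (n = 5); all axes start at 0. The groups are apart for Insrr (2.82 to 4.66 against 7.29 to 9.17 CPM), lie close without overlap for Igf2r, and overlap for the other members.

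Insr, which encodes the insulin receptor (chromosome 8, 3122061 to 3279617, minus strand), was at 46.4, 37.9, 47.4 and 46.3 CPM in control libraries 1 to 4 and at 48.2, 44.4, 44.6, 46.7 and 43.9 CPM in icKO libraries 1 to 5. The groups overlapped, with control 2 below all other libraries. The means were 44.5 ± 4.42 CPM (SD, n = 4) and 45.6 ± 1.80 CPM (SD, n = 5), and the log2 fold change of 0.04 (SE 0.07) had a 95% interval of -0.11 to 0.18. Without control 2 its sign changed, to -0.03 (SE 0.05).

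Igf1r, the receptor gene for IGF1 (chromosome 7, 67952827 to 68233668, plus strand), was at 71.5, 67.0, 76.1 and 89.0 CPM in control and at 78.7, 75.7, 82.3, 74.2 and 84.9 CPM in icKO. Control 4 was the highest and control 2 the lowest of the 9 libraries, and the icKO values lay between them. The log2 fold change was 0.06 (SE 0.08, 95% interval -0.11 to 0.23). The intervals of Insr and Igf1r lie apart from the Insrr value, by which the set was chosen, and include small changes in either direction. Within a library, Insr stood to Igf1r at 0.719 ± 0.0704 (SD, n = 4) per kb in control and 0.705 ± 0.0575 (SD, n = 5) in icKO. Insrr stood to Insr at 0.453 ± 0.0633 (SD, n = 4) in control and 0.187 ± 0.0407 (SD, n = 5) in icKO.

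Igf2r, the IGF2 clearance receptor gene (chromosome 17, 12682406 to 12769664, minus strand), was at 56.1, 41.1, 54.4 and 54.7 CPM in control and at 56.8, 65.4, 59.1, 57.7 and 59.2 CPM in icKO. Every icKO library lay above every control library, but by less than 1 CPM between icKO 1 and control 1. The log2 fold change was 0.21 (SE 0.08, 95% interval 0.03 to 0.39), and it was 0.12 without control 2, the lowest library. Reads counted for Airn, the antisense transcript of the imprinted Igf2r locus, came to 4.58 to 5.71 CPM in control and 4.07 to 5.26 CPM in icKO. The difference was -0.14 on the log2 scale (SE 0.11, edgeR adjusted p 0.741). Airn, on the opposite strand, shares 0 exonic bases with Igf2r in the annotation, but the spans of the 2 genes overlap. As the strand setting is not given, the strand of the reads counted for Airn is not known.

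Of the substrates, Irs1 (chromosome 1, 82233101 to 82291416, minus strand) was at 3.81, 3.63, 6.48 and 5.25 CPM in control and 4.54, 5.11, 4.52, 4.31 and 4.65 CPM in icKO. Control libraries lay on both sides of the icKO libraries, with a coefficient of variation of 27.9% in control and 6.39% in icKO. The log2 fold change was -0.05 (SE 0.16, 95% interval -0.41 to 0.31), and it was 0.15 (SE 0.14) without control 3. The predicted gene Gm9747, opposite in strand, covers 2822 exonic bases of Irs1 (30.9% of its merged exons) and is listed at 0 counts in all 9 libraries. As the strand setting is not given, reads in these bases may have been counted for neither gene. The 0 counts therefore do not show whether Gm9747 is expressed. The Irs1 level per kb and its place in the order may be too low, and the ratio of Irs2 to Irs1 too high.

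Irs2 (chromosome 8, 10984681 to 11008458, minus strand) was at 56.0, 44.2, 45.8 and 57.5 CPM in control and at 37.5, 46.3, 40.2, 41.3 and 51.1 CPM in icKO. Only 3 of 5 icKO libraries (1, 3 and 4) lay below all control libraries, and control 1 and 4 lay above all icKO libraries. The means were 50.9 ± 6.85 CPM (SD, n = 4) and 43.3 ± 5.43 CPM (SD, n = 5), which gave a log2 fold change of -0.23 (SE 0.10, 95% interval -0.46 to -0.01). Irs2 stood to Irs1 at 16.2 ± 4.61 (SD, n = 4) per kb in control and 13.5 ± 1.49 (SD, n = 5) in icKO.

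Set against all genes, 1 of the 6 members (Insrr) passed the threshold used for all genes, an adjusted p of 0.05 in edgeR's quasi-likelihood test, where 0.852% of all tested genes were. The groups did not overlap for 2 of 6 members (Insrr lower, Igf2r higher), against 4.5% of all tested genes, 2.34% lower and 2.16% higher. These counts only place the members among all genes, and nothing is read from them, since the members were chosen with this contrast known. The median log2 fold change of the members was -0.01, against 0.00 for all tested genes, and 5 of the 6 lay within the central 90% of all genes (-0.33 to 0.35).

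**Figure D3:**
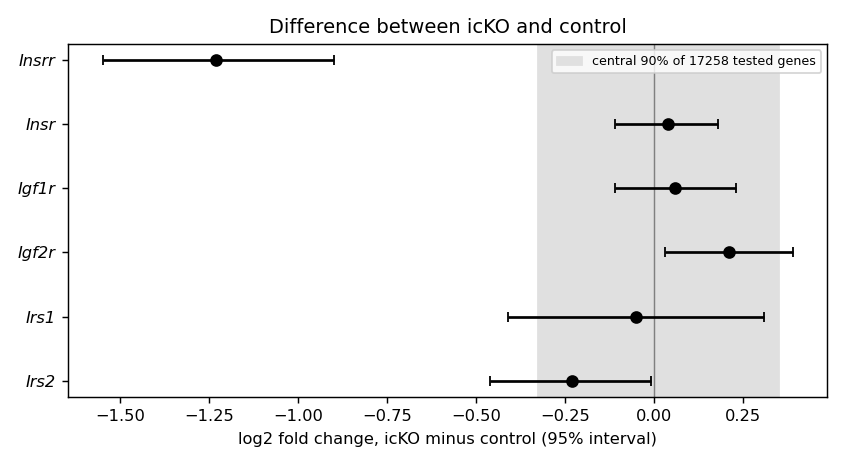
Log2 fold change of each member, icKO minus control, with 95% intervals from the fit across all genes; grey marks the 5th to 95th percentile of all tested genes. Insrr (-1.23) lies outside the grey band, and the other 5 members lie within it, between -0.23 and 0.21.

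The gene that overlaps Insrr was then examined, since counts of genes that overlap on opposite strands cannot be separated when the strand setting is unknown. Insrr (ENSMUSG00000005640) spans positions 87796951 to 87816101 of chromosome 3 (mm10, plus strand), with 23 merged exons of 5714 bases in all. Pear1, an endothelial and platelet receptor gene on the minus strand, spans Insrr from 87747890 to 87824306 but shares 0 exonic bases with it. Pear1 was at 18.7 to 23.4 CPM in control and 17.9 to 23.9 CPM in icKO, or -0.05 on the log2 scale (SE 0.10, edgeR adjusted p 0.904).

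The genes whose profile over the 9 libraries was most like that of Insrr were found by the root mean square difference between log2 CPM profiles, each centred on its own mean, among 13420 protein-coding genes with a mean of at least 1 CPM. Because Insrr differs between the groups, this measure picks genes that differ in the same way, and their differences are a description. The nearest 5 were Chst1 (0.271), a sulfotransferase gene, Grik1 (0.317), a kainate receptor subunit gene, Gsg1l (0.317), an auxiliary subunit gene of AMPA-type glutamate receptors, Tle6 (0.327), of the Groucho corepressor family, and Plch2 (0.331), a phospholipase C gene. Chst1 was at 5.38 to 7.07 CPM in control and 2.75 to 3.53 CPM in icKO, and Gsg1l at 5.49 to 7.36 and 3.33 to 4.42 CPM. Grik1 was at 394 to 449 CPM in control and 224 to 246 CPM in icKO. Tle6 was at 3.45 to 4.81 CPM in control and 1.82 to 3.06 CPM in icKO. Plch2 was at 7.1 to 8.59 CPM in control and 3.47 to 5.3 CPM in icKO. For all 5 genes the groups did not overlap, a separation that the choice by likeness to Insrr favours. Prdm12 itself was 6856th (0.664), with a log2 fold change of -2.48. The profiles were not scaled, so a fall larger than that of Insrr also counts as a difference. The groups did not overlap for Prdm12 either.

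The rest of the pathway was followed in 7 lists of ligands, IGF binding proteins, adaptors, inhibitors and the downstream arms, in all 88 tested genes besides the members. None passed in edgeR's quasi-likelihood test, against 0.852% of all tested genes, while DESeq2 called 1 higher (Shc1) and 1 lower (Tbc1d4), against 2.6% of the genes it tested. At an unadjusted p under 0.05 there were 10 of 88, or 11.4%, against 11.1% of all tested genes. The list medians lay between -0.04 and 0.04 on the log2 scale, except for the 2 tested ligand genes (0.35).

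Of the ligand genes, Igf1 was expressed at 12.3 ± 3.29 CPM (SD, n = 4) in control and 12.8 ± 5.35 CPM (SD, n = 5) in icKO, with a log2 fold change of 0.06 (SE 0.27). Igf2 was near the limit of the test, at 0.633 and 0.974 CPM, with an interval of -0.95 to 2.25. The insulin genes Ins1 and Ins2 were not tested, with at most 1 and 4 counts in any library. Among 11 tested genes of IGF binding proteins and their proteases, which hold and release IGFs outside the cell, Stc1 had the largest value at 1.23 (SE 0.46, adjusted p = 0.316) but was at 0.206 and 0.465 CPM. The protease gene Htra1 was at -0.15 (SE 0.08, adjusted p = 0.55) and Igfbp5 at 0.38 (SE 0.30, adjusted p = 0.722). Igfbp5 was at 131 ± 41.9 CPM (SD, n = 4) in control and 171 ± 74.4 CPM (SD, n = 5) in icKO. The fibroblast and meningeal marker sum also varied, from 692 to 1481 CPM in control and 888 to 2215 CPM in icKO. The part of these cells in the Igfbp5 values was not tested.

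Among the 20 tested genes of other substrates and adaptors, Shc1, which links receptors to GRB2 and RAS, was at 118 ± 14.6 CPM (SD, n = 4) in control and 148 ± 9.16 CPM (SD, n = 5) in icKO. The difference of 0.32 on the log2 scale (SE 0.08) had an edgeR adjusted p of 0.098 and a DESeq2 adjusted p of 0.0103, and the groups did not overlap. The docking protein genes Dok5 at -0.37 (SE 0.11, adjusted p = 0.192) and Dok6 at 0.19 (SE 0.07, adjusted p = 0.34) did not pass. Of the remaining IRS genes, Irs3 was at 3.27 and 4.06 CPM, a log2 fold change of 0.33 (SE 0.19), and Irs4 had at most 2 counts in any library.

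The 15 inhibitors of the receptors and of PI3K signalling ranged from -0.09 to 0.22 on the log2 scale. Those with the smallest p were the receptor-binding adaptor gene Grb14 at 0.17 (SE 0.07), Socs6 at 0.12 (SE 0.09) and the AKT phosphatase gene Phlpp2 at 0.07 (SE 0.07), and their edgeR adjusted p-values were 0.393, 0.738 and 0.764. The 23 genes of the PI3K, AKT and mTOR arm ranged from -0.13 to 0.17, and the 9 of the RAS and MAP kinase arm from -0.09 to 0.12. Pik3r1, a regulatory subunit gene of PI3K, was at 0.17 (SE 0.07, adjusted p = 0.424), Pik3r3 and the catalytic subunit gene Pik3cb both at -0.10, and Araf, Map2k2 and Mapk3 at 0.12, -0.09 and 0.03.

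Of 8 genes of FOXO factors and glucose uptake, Tbc1d4, an AKT substrate that governs glucose transporter traffic, was at 32.1 ± 2.09 CPM (SD, n = 4) in control and 27.5 ± 1.18 CPM (SD, n = 5) in icKO. On the log2 scale this was -0.23 (SE 0.06), for which edgeR gave an adjusted p of 0.129 and DESeq2 one of 0.0481. Foxo6 was at -0.51 (SE 0.17, adjusted p = 0.255) and the glucose transporter gene Slc2a1 at -0.14 (SE 0.06, adjusted p = 0.427).

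Other receptor tyrosine kinases were listed for comparison with the members. Of 16 tested, 1 rose, 0 fell and 15 did not pass, against 0.475% of all tested genes higher and 0.377% lower, and 3 were at an unadjusted p under 0.05. DESeq2 called 1 higher and 1 lower (Fgfr1), against 2.6% of the genes it tested in either direction. The gene that rose in both was Ntrk3, the neurotrophin-3 receptor gene, which rose, with 374 ± 67.1 CPM in control (SD, n = 4) and 527 ± 18.5 CPM in icKO (SD, n = 5). The difference was 0.49 on the log2 scale (SE 0.10, edgeR adjusted p 0.0342), and the call was lost in 6 of 9 cases when a single library was left out (icKO 1, 3, 4 or 5, control 1 or 3; highest adjusted p 0.0969). Fgfr1 at -0.22 (SE 0.06, adjusted p = 0.139), Ret at -0.32 (SE 0.10, adjusted p = 0.213), Fgfr2 at -0.34 (SE 0.26) and Pdgfrb at 0.09 did not pass. Of the kinases closest to the insulin receptor family, Alk was at 2.11 and 2.21 CPM, Ltk at 0.363 and 0.417 CPM, and Ros1 had at most 3 counts in any library.

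**Figure D4:**
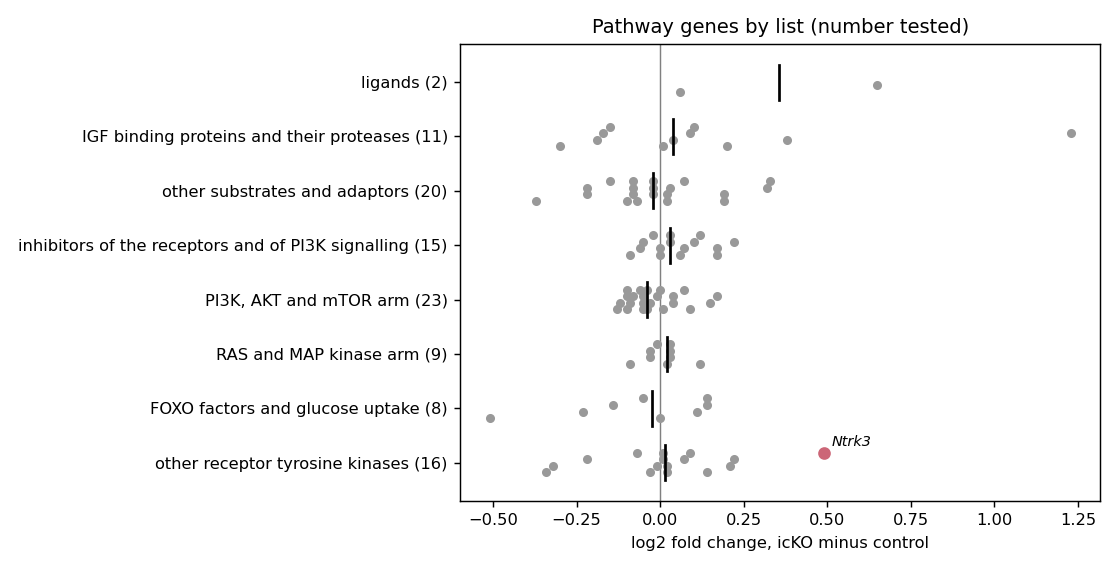
Log2 fold change, icKO minus control, of each tested gene (point) in 8 lists, with the list median as a black line; red marks an adjusted p under 0.05. The gene past the threshold is Ntrk3 (0.49), in the list of other receptor tyrosine kinases, and the 7 pathway lists hold none.

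Library totals were 19607740 to 29481589 counts. Prdm12 averaged 134 ± 20.0 CPM in control (SD, n = 4) and 24.0 ± 1.41 CPM in icKO (SD, n = 5), without overlap. Markers of the cell types in a ganglion were read beside the members. For comparison with their counts at an unadjusted p under 0.05, 837 of all 17258 tested genes were higher and 1080 lower at that threshold. Of 8 pan-neuronal markers, 0 passed in edgeR's test and 1 was higher at an unadjusted p under 0.05, with a summed level of 9428 to 11060 CPM in control and 9617 to 11100 CPM in icKO. Of 7 peptidergic nociceptor markers, 1 fell (Gfra3), against 0.377% of all tested genes, and at an unadjusted p under 0.05 there were 1 higher (Tac1) and 2 lower (Gfra3 and Ptgir). The sums were 2677 to 3605 CPM in control and 2542 to 3420 CPM in icKO. Of 8 A-fibre neuron markers 1 rose (Ntrk3), against 0.475% of all tested genes, while the other 7 had values below 0 and 4 of these were at an unadjusted p under 0.05. Kcnc1 was at -0.58 (edgeR adjusted p 0.0517), Etv1 at -0.39 (edgeR adjusted p 0.0525), and the median of the list was -0.28. The sums were 3231 to 3701 CPM in control and 2690 to 3210 CPM in icKO, without overlap. Nefh alone averaged 2626.5 CPM in control, where the sum averaged 3490, and 2047.1 CPM in icKO, where it averaged 2970. The sums therefore mostly follow Nefh, which did not pass (edgeR adjusted p 0.0763). The part of these neuron classes in the Insrr difference was not tested. Non-peptidergic nociceptor, satellite glia, Schwann cell, macrophage, endothelial, fibroblast, muscle, adipocyte and spinal cord glia lists held 0 calls by edgeR's test, with 1 gene each higher or lower at an unadjusted p under 0.05 in the non-peptidergic (higher), satellite glia, muscle and spinal cord lists (lower). Muscle markers, from a tissue known for its insulin receptor, summed to 51.1 CPM in control 2, the library lowest in Insr, Igf1r, Igf2r and Irs1. They summed to 31.5 CPM in icKO 1, the library highest in Insr and lowest in Irs2, and to at most 14.2 CPM elsewhere. Adipocyte markers summed to 2.24 to 9.91 CPM in icKO and 2.9 to 21.2 CPM in control. Spinal cord glia markers summed to 85.8 CPM in control 4, the library highest in Igf1r and Irs2, and to at most 27.9 CPM elsewhere. The part of these tissues in the levels of the members was not tested.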

How the data were processed

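Messenger RNA of 9 lumbar ganglion libraries was analysed. The authors deposited 1 file of unscaled read counts for each library. The submitters' processing notes name featureCounts 1.5.0-p1, STAR 2.5.2a, the build mm10 and bcl2fastq 2.20.0.422. The sources used here do not give the annotation release, the strand setting or the treatment of reads with several matches. All 55536 identifiers matched GENCODE M21 on the same build, which gave symbols, positions, exon lengths and coding sequences. RefSeq promoter entries were found for 4 of the 6 members and none is shown.

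Genes were kept with filterByExpr (minimum count 10, total 15). Counts were scaled with TMM and compared with the quasi-likelihood test of edgeR 4.0.16 in R 4.3.3, with Benjamini-Hochberg adjustment over all 17258 tested genes and a threshold of 0.05. DESeq2 1.42.0 was an alternative. CPM use TMM-scaled totals, log2 CPM a prior count of 2, and each SE was derived from the log2 fold change and its F statistic. The script was tested on simulated data. The members, lists and marker genes were chosen with earlier results of these data known. Named genes were the members, Prdm12, genes overlapping a member, up to 3 genes per list by smallest adjusted p (5 with a call), and the 5 profiles nearest to Insrr. Other genes named (Irs3, Irs4, Ins1, Ins2, Alk, Ltk, Ros1, Gfra3, Tac1, Ptgir, Kcnc1, Etv1, Nefh) were added after their values were seen. A few genes and 1 sequence are not reported here, and the lists are counted without those genes.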

Additional observations from a re-analysis of the deposited data

Results flagged for a closer look

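In the control group, replicate 2 stood apart from the other libraries at the low end for Insr, at 37.9 CPM, and for Igf2r, at 41.1 CPM. In the icKO group, replicate 2 stood apart at the high end for Igf2r, at 65.4 CPM. Each has a gap to its nearest neighbour that is large for the range of its group by Dixon's criterion. The members gave 12 combinations of gene and group, of which 3 met it, and chance flags about 1 in 20.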

How the results depend on the processing

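The Insrr difference, by which the members were chosen, is given as a description: it ranged from -1.34 to -1.16 when single libraries were left out, which re-reads the same libraries and adds no support. Within the libraries of high or low Y-linked counts, a split added after seeing the data, it was -1.25 and -1.21, past the threshold in neither, with 4 and 5 libraries in the fit. Igf1r, Igf2r and Irs2 kept their signs under all 19 alternatives. Insr changed sign to -0.01 among high Y-linked libraries and ranged from -0.03 to 0.08 over single libraries left out. Irs1 changed sign to 0.03 among low Y-linked libraries and ranged from -0.16 to 0.15. Of all tested genes, 82 were higher and 65 lower. These counts were 172 and 221 with no count filter, 197 and 234 with DESeq2, 0 and 3 among high Y-linked libraries, and 11 and 9 among low ones. Over single libraries left out they ranged from 45 to 85 (lowest without icKO 1) and from 33 to 90, the lower count falling by over 1.5 times in 6 cases (without icKO 1, 3, 4 or 5 or control 1 or 3). Over all 8 lists, 1 gene was higher (Ntrk3) and 0 lower. The higher count was 2 with no count filter or DESeq2, 0 in either Y-linked class and 0 to 1 over single libraries, and the lower count was 2 with DESeq2 and 0 otherwise, single libraries left out included. Replicate numbers did not pair the libraries (correlations of deviations 0.103, -0.175, -0.0441 and 0.17). With a replicate block, 28 genes were higher and 20 lower, the lists held 0 higher and 0 lower, and Insrr was at -1.20. The causes of these shifts were not tested. Low counts limit Insrr and Irs1 most, with 73 to 252 and 89 to 178 per library.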
